A study of Mus musculus with 68 samples.

Results

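The 9 stress-responsive secreted growth factors Pdgfb, Pdgfa, Vegfa, Hbegf, Areg, Ereg, Gdf15, Fgf7 and Bdnf were followed through mouse embryonic fibroblasts (MEFs) of 13 genotypes under endoplasmic reticulum (ER) stress. They were picked by name, with earlier results of these data known. Each was listed in the tables of the 8 founder strains and of the 5 F1 crosses, out of 13378 genes in either set. Each also passed the filter on low values in every comparison. The founder strains of the Collaborative Cross, a mouse mapping panel, were A/J (A), C57BL/6J (B6), 129S1Sv/ImJ (129), NOD/ShiLtJ (NOD), NZO/H1LtJ (NZO), CAST/EiJ (CAST), PWK/PhJ (PWK) and WSB/EiJ (WSB). The crosses had a B6 mother and a CAST, 129, NOD, NZO or WSB father, and are written xCAST, x129, xNOD, xNZO and xWSB. Cells received 2 ug/ml tunicamycin (TM) in DMSO or 0.1% DMSO alone (control) for 4 h. No genotype carried an engineered allele, and every control group received the vehicle. The cells of a genotype came from female embryos of 1 litter pooled into 1 MEF line, and replicates were wells of that line. P-values therefore measure the spread between wells, and a strain cannot be told apart from the litter and the line that stand for it. There were 3 control and 3 TM libraries for A and for PWK, 2 and 2 for B6 and for CAST, and 2 and 3 for each of the other 4 strains. x129, xNZO and xWSB had 3 and 3, xCAST had 2 and 3, and xNOD had 3 and 2.

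TM blocks N-linked glycosylation, so that misfolded proteins build up in the ER and the unfolded protein response switches on chaperone and stress genes. Secreted growth factors themselves fold in the ER before they leave the cell. They bind receptors, mostly receptor tyrosine kinases, on the same or neighbouring cells and feed the ERK and AKT pathways. The members fall into 4 roles. Pdgfb and Pdgfa encode chains of platelet-derived growth factor, which drives the growth of fibroblasts and pericytes, and Vegfa encodes the main growth factor of blood vessels. Hbegf, Areg and Ereg encode ligands of the EGF receptor family, made as membrane precursors that ADAM proteases shed. Gdf15 encodes a distant TGF-beta relative that is released by stressed cells and acts through Gfral and Ret in the hindbrain. Fgf7, a fibroblast product that acts on epithelium, and Bdnf, a neurotrophin, complete the set.

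The deposited level of a gene is its read number scaled to the size of the library after TMM normalization. It is not divided by the length of the gene, so levels of different genes are compared below only per kb of exon. Founder and F1 tables were scaled separately, and levels are compared within a set. Libraries held between 6442976 and 29528457 reads on genes. TM acted in every genotype by the marker genes of the response. Hspa5, the chaperone BiP, changed by 2.82 ± 0.07 (log2, SE, mean over the founder strains) and 2.90 ± 0.06 over the crosses, and Ddit3, the transcription factor CHOP, by 3.90 ± 0.09 and 3.76 ± 0.08. Each passed the threshold in all 13 genotypes. The summed level of 10 fibroblast markers lay between 13100 and 54600 in every library. Markers of other cells summed to far less, with 4.56 to 70.9 for myeloid markers (10 of 12 listed in the founder and 6 in the F1 tables, Aif1 and Fcer1g in neither), 0.226 to 8.56 for epithelial markers (3 of 8 and 2 of 8, without Epcam and Krt5) and 5.83 to 336 for muscle markers (2 of 5, without Myod1 and Myog). A few libraries stood apart from their group. Endothelial markers (7 of 9 listed in the founder and 9 in the F1 tables) summed to 35.7 in control replicate 2 of WSB against 7.5 in the other WSB control, and to 33.8 in control replicate 3 of xNOD against 9 in the lowest of its group. Neural markers (5 of 7 and 4 of 7 listed) summed to 362 in control replicate 3 of xNZO against 4.68 in the lowest of its group. NZO TM replicate 3, xWSB control replicate 1 and xWSB control replicate 3 deviated most from their group by the GC content of their transcripts. Calls that were gained or lost without 1 of these libraries are given beside the results. Fewer cells of a type and less RNA per cell cannot be told apart in such bulk samples.

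Promoter sequences of members that moved together under TM are shown here because the factors of a stress response bind in such regions. RefSeq promoter windows on GRCm38.p6, from 250 bases before a transcript's start to 50 after it, were found for Pdgfa, Vegfa, Areg, Gdf15, Fgf7 and Bdnf. Pdgfb and Ereg had none, and windows of Hbegf were not searched. Each window was searched on both strands for 7 motifs. These were the NF-kB site, the AP-1 site TGANTCA, the C/EBP-ATF response element TGATGNAA (CARE), the ER stress element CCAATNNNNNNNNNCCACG, the unfolded protein response element TGACGTGG (UPRE), the cAMP response element TGACGTCA (CRE) and the hypoxia core ACGTG, which overlaps the UPRE. Of all 32851 windows of the same length, the NF-kB site was held by 4.51%, AP-1 by 7.81%, CARE by 3.97%, the ER stress element by 0.119%, UPRE by 0.676%, CRE by 1.79% and the hypoxia core by 19.6%. In the sequences, written 5′ to 3′ on the strand of the gene, capitals mark a motif. A match describes the letters only. Areg has 1 window (chr5:91139349-91139648, plus strand), with a CRE that begins 61 bases before the start:
Areg: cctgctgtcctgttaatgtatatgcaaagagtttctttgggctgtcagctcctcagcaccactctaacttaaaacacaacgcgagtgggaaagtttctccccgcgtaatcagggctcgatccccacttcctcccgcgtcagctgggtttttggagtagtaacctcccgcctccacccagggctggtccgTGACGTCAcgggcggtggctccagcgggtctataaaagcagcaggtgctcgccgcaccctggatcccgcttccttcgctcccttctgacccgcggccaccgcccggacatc
Vegfa has 2 windows. The one at the gene's outer start (chr17:46032328-46032627, minus strand) holds an NF-kB site 118 bases before the start, and the inner one (chr17:46025114-46025413, minus strand) holds a UPRE, with the hypoxia core inside it, 212 bases before its start:
Vegfa, outer window: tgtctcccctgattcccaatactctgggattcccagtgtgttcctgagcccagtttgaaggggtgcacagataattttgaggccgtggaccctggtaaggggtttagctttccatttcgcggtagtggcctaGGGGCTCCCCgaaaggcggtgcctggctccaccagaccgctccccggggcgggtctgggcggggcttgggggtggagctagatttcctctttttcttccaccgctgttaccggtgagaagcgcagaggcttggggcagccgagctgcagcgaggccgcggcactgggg
Vegfa, inner window: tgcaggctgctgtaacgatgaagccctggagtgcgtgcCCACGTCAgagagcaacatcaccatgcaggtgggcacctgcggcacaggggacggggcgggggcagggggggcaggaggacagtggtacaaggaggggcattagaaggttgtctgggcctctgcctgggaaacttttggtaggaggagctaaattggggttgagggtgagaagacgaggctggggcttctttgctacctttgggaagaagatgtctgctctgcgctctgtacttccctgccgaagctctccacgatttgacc
The inner of the 2 Gdf15 windows (chr8:70632046-70632345, minus strand) holds the hypoxia core on both strands, 83 and 82 bases before its start, and the outer one holds none of the 7 motifs:
Gdf15, inner window: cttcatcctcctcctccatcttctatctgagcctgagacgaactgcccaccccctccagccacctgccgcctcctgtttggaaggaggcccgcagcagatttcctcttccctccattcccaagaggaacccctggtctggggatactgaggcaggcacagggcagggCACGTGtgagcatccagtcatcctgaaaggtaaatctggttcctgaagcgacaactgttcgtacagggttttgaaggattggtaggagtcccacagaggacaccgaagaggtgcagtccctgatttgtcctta
The only Fgf7 window (chr2:126034408-126034707, plus strand) holds none of the 7 motifs:
Fgf7: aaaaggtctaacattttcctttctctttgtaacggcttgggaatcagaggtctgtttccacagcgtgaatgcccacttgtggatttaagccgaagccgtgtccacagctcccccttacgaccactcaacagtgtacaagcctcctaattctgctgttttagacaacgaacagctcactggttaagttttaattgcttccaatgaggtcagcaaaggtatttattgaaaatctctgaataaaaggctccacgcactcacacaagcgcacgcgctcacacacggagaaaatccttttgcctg
Neither of the 2 Pdgfa windows holds a motif. Among the 7 Bdnf windows, which mark its alternative starts, 2 hold the hypoxia core, 1 holds AP-1, 1 the NF-kB site and 1 CARE.

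Across the founder strains, 7 of the 9 members were raised by TM and none was lowered. The test was limma on log2(level + 0.1), with each strain given equal weight, a Benjamini-Hochberg adjusted p below 0.01 over all genes and a change of at least 1.5 fold. Of all 13197 genes, 6.04% were raised by this rule. The raised members were Pdgfb, Hbegf, Areg, Ereg, Gdf15, Fgf7 and Bdnf. Without NZO TM replicate 3, Hbegf fell just short of 1.5 fold (log2 change 0.58, adjusted p = 1.01e-12) and 6 members were raised. Vegfa passed the adjusted p (7.61e-09) but changed by 1.46 fold, and Pdgfa changed by -0.26 ± 0.09 (log2, SE; adjusted p = 0.0125). In the F1 crosses 6 of the 9 were raised, against 4.95% of 12803 genes (7 by edgeR, with Vegfa). Vegfa at 1.47 fold and Hbegf at 1.45 fold were below the fold limit there (Vegfa passed it without xNOD TM replicate 1, at a log2 change of 0.63, or xWSB TM replicate 1, at 0.6), and Pdgfa changed by -0.09 ± 0.07 (adjusted p = 0.3). The median change of the members was 0.87 (log2) in the founders and 0.70 in the crosses, against -0.04 over all genes in each set. No member was lowered by edgeR's quasi-likelihood test on the recovered reads either, in any genotype. At an unadjusted p below 0.05 in limma, Pdgfa was lower in B6, CAST, NOD and x129, and no other member was lower in any genotype. The share of all genes at that unadjusted limit is not given, so counts at it, here and below, have no background.

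For the members other than Pdgfa, libraries of the same genotype were almost fully separated by treatment. Leaving Pdgfa aside, the mean change was above 0 in all 64 pairs of a member and a founder strain and in all 40 pairs of a member and a cross. Every TM library lay above every control library of its genotype in 63 of the 64 founder pairs, the exception being Vegfa in A. The same held in 38 of the 40 F1 pairs, the exceptions being Vegfa in xNOD and Fgf7 in xWSB. Of all genes tested, 10.5% (A) to 32.6% (B6) were separated in this way within a strain. Within a cross the share was 9.9% (xWSB) to 27.8% (xNOD). Pdgfa was separated in this way in 0 strains and 0 crosses. Pdgfb, Hbegf, Areg, Ereg, Gdf15, Fgf7 and Bdnf were separated in all 8 strains, against 4.12% of all genes. Pdgfb, Hbegf, Areg, Ereg, Gdf15 and Bdnf were separated in all 5 crosses, against 4.53% of all genes.

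**Figure D1:**
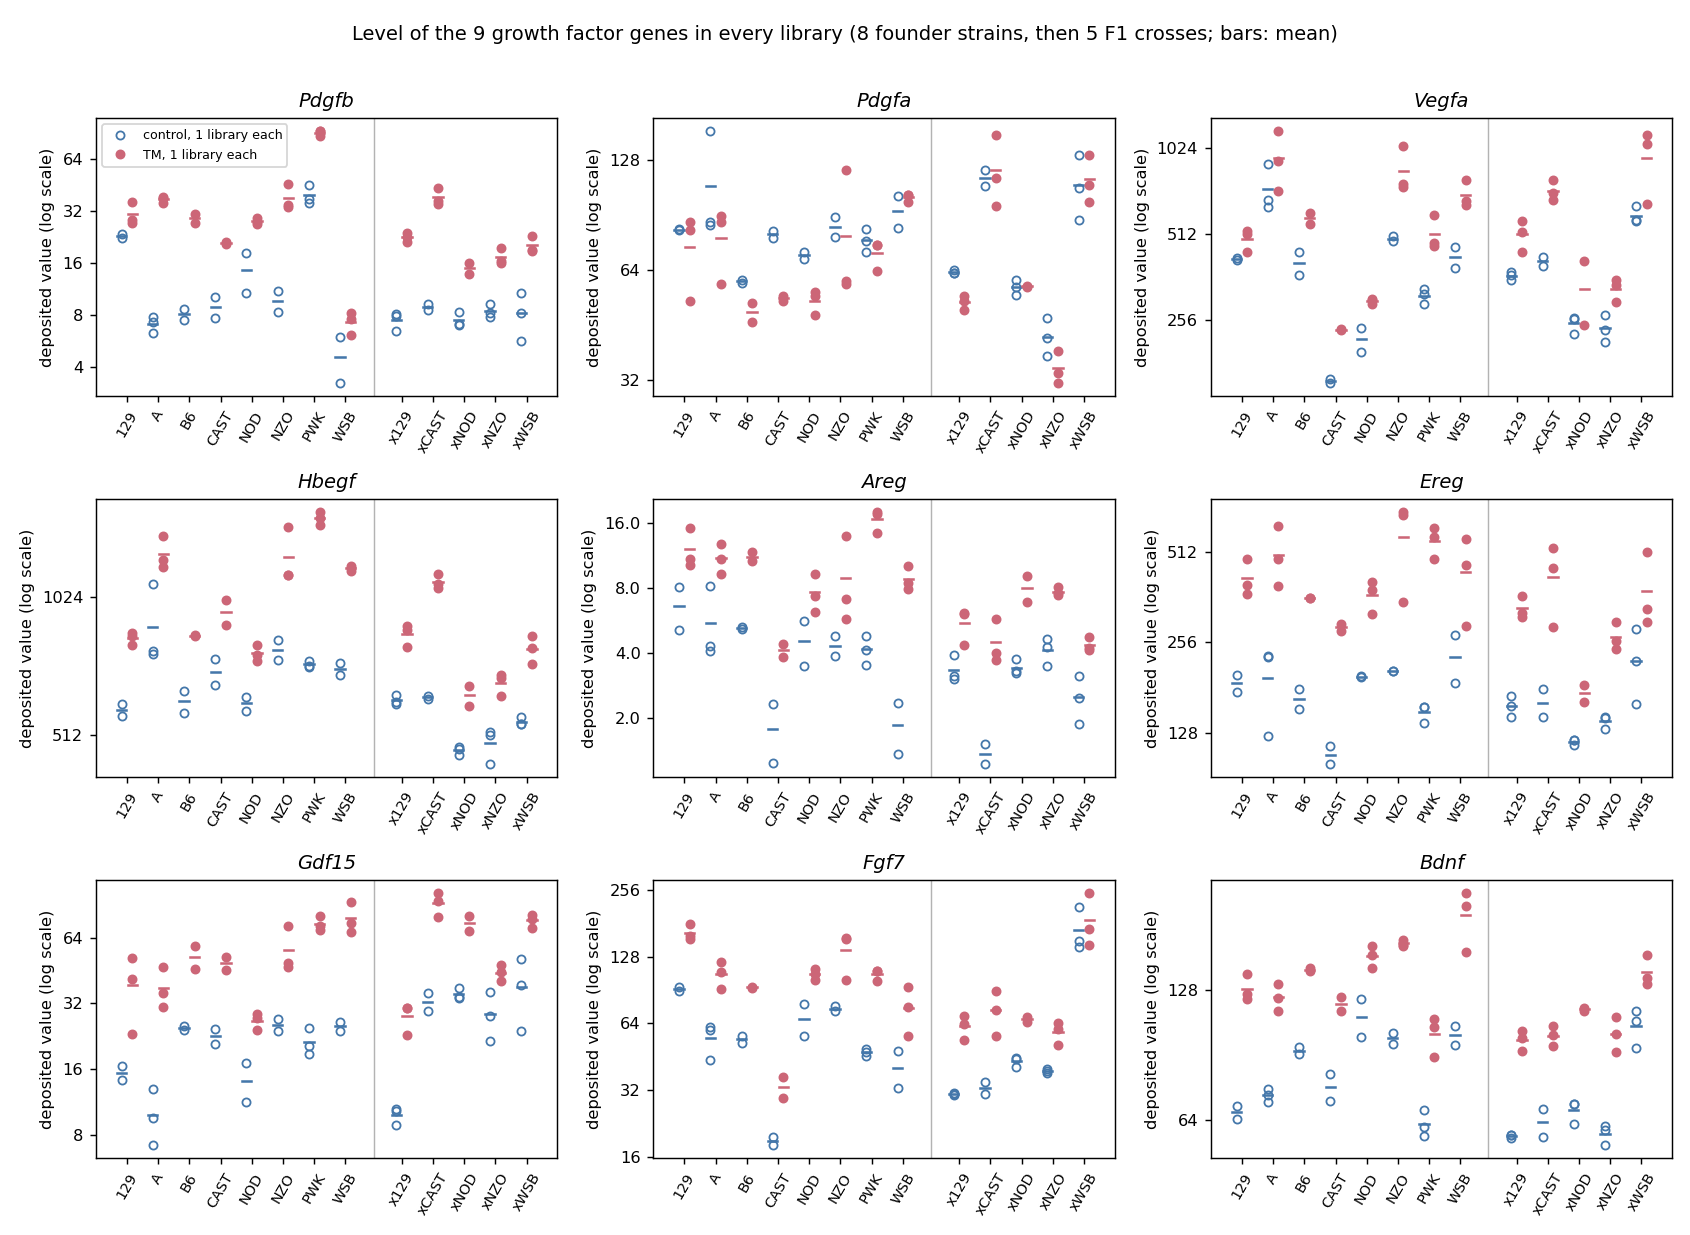
Level of each member in every library, on a log axis, 1 panel per gene, with genotypes along the horizontal axis, founder strains left and F1 crosses right, and control and TM libraries in different colours. TM points sit above control points in almost every genotype for 8 genes, while Pdgfa points mix, and PWK stands out for Pdgfb (35.5 to 45.1 in control and 86.1 to 93.0 in TM libraries).

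Calls within a genotype were read against the share of all genes induced there. Induced genes had an adjusted p below 0.01 and at least 1.5 fold within the genotype. PWK had 8 induced members (background 6.36% of the genes tested), B6 had 6 (5.04%), WSB had 5 (2.85%), CAST had 3 (2.54%), NOD had 1 (1.45%) and A had 1 (0.346%). 129 (0.315%) and NZO (0.32%) had 0 by limma and by edgeR, with 6 and 7 members raised at an unadjusted p below 0.05. Of the crosses, xCAST had 7 (2.52%), x129 and xNOD had 5 each (4.88% and 3.69%), xNZO had 3 (1.44%) and xWSB had 0 by either tool (0.185%), with 7 raised at an unadjusted p below 0.05. In all, 24 of 72 founder pairs and 20 of 45 F1 pairs were called. By size alone, 53 of the 64 founder pairs without Pdgfa and 29 of the 40 F1 pairs reached 1.5 fold. Pdgfa reached at most 1.1 fold in a strain and 1.04 fold in a cross. The share of all genes that reached 1.5 fold is not given, so these counts have no background. A missing call in NZO, 129 or xWSB does not show a small change, and 1.5 fold without a call does not show a response. PWK kept 8 and x129 kept 5 induced members whichever library was left out, and xWSB kept 0. NZO had 6 without TM replicate 3, and 129 had 4 without TM replicate 3. NOD had 6 without control replicate 1, 4 without control replicate 3 and 0 without any 1 of its TM libraries. CAST had 7 without control replicate 1. WSB had 2 without control replicate 2, the library with endothelial transcripts, and 1 to 7 without 1 of the others. A had 0 without TM replicate 1 or 3. xCAST had 2 without control replicate 2, TM replicate 1 or TM replicate 2, 4 without control replicate 3 and 8 without TM replicate 3. xNOD had 0 without any 1 of its control libraries, replicate 3 with its endothelial transcripts included. xNZO had 3 without control replicate 3, the library with neural transcripts, and 0 without any 1 of the others. The share of all genes induced in each fit without a library is not given. The counts from those fits have no background and cannot be read as a change in the members alone. edgeR called 2 members in WSB. The counts also moved with the model of the spread. Without its trend over level, B6, CAST, NOD, WSB, xNOD and xNZO had 0 induced members and xCAST had 3, while PWK had 8, x129 had 5 and A had 1. In that fit 0.801% of all genes tested were induced over the founder strains and 1.02% over the crosses. With 1 fit over all libraries of a set, which shares the spread between genotypes, PWK had 8, NZO 7, WSB 6, A 5, 129 4, CAST 3, B6 2 and NOD 1, and of the crosses xCAST had 8, x129 5, xNOD 4, xNZO 4 and xWSB 3. The share of all genes induced in the fit over a set is not given, so its counts have no background. The order of the genotypes by their number of calls therefore depends on the model, apart from the 8 calls in PWK and the 5 in x129 under these 3 fits. A correction for GC content and length, described below, moved those counts too. With it PWK had 7, WSB 5, B6 4, CAST 4, NOD 3, A 2, NZO 2 and 129 0. Of the crosses, xCAST had 6, x129 3, xNZO 3, xNOD 2 and xWSB 2, again without a share of all genes.

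**Figure D2:**
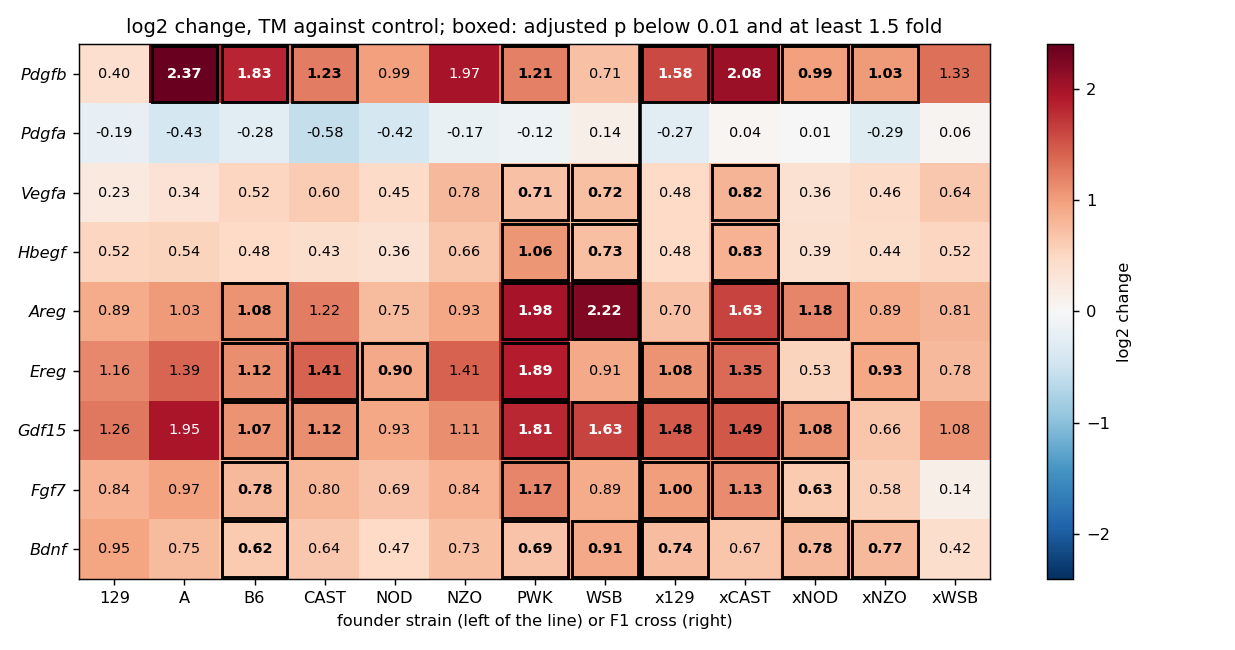
Log2 change (TM minus control, mean of the libraries) of each member (rows) in each genotype (columns), as a colour with the value written in, and a box around changes past the threshold within the genotype. Pdgfb in A (2.37) and Areg in WSB (2.22) are the largest values, Pdgfa lies between -0.58 and 0.14, and NZO, 129 and xWSB hold no box although most of their values are above 0.5.

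Pdgfb (ENSMUSG00000000489, chr15:79995874-80014977 on the minus strand of GRCm38) was the member whose response differed most clearly between strains. All members are protein-coding, and each location below is that of the whole gene on GRCm38. Pdgfb had 22.4 and 23.4 in the controls of 129 and 27.3, 36.1 and 28.4 with TM. In A it had 7.81, 6.29 and 7.31 in controls and 37.9, 35.4 and 38.5 with TM. The groups did not overlap in either strain, but the gap was small in 129 and wide in A. The log2 change was 0.40 ± 0.18 (SE; adjusted p = 0.235) in 129 and 2.37 ± 0.20 in A (5.18 fold; adjusted p = 0.00134). The adjusted p in A was 0.0103 without TM replicate 1 and 0.0165 without TM replicate 3. The other calls were B6 (1.83 ± 0.13), CAST (1.23 ± 0.17) and PWK (1.21 ± 0.10). NZO had 8.31 and 11 in controls and 34.8, 33.7 and 45.9 with TM, a change of 1.97 ± 0.21 with an adjusted p of 0.0141. It was 1.83 with a call (adjusted p = 1.67e-09) without NZO TM replicate 3. NOD changed by 0.99 ± 0.20, with controls at 10.8 and 18.2, and was called without control replicate 1 (0.62) or 3 (1.36). WSB had the lowest levels of all, at 5.96 and 3.24 in controls and 8.24, 6.17 and 7.57 with TM. Its change of 0.71 ± 0.30 became 1.14 without control replicate 2, where endothelial markers were high, and 0.28 without control replicate 3. Endothelial cells are a known source of Pdgfb. The part of those transcripts in the WSB value was not tested.

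A strain by treatment interaction in 1 model over the 40 founder libraries was past the threshold for Pdgfb (moderated F test in limma, adjusted p = 0.0015), as it was for 0.174% of all genes. It was the only member past it, and 4 of the 9 had an unadjusted p below 0.05. The adjusted p for Pdgfb was 0.00164 by edgeR and stayed between 2.97e-05 and 0.00757 as each library was left out. Whether the replicate number pairs the samples is not known. With this number as a block, the call was lost (adjusted p = 1), and 0% of all genes passed. The call was also lost with the block and a correction for GC content and length together (0.0915), where again 0% of all genes passed. With the correction alone it was kept (1.07e-05). The study's own kind of test sets each TM library against the median control of its strain, takes that median as known, and so understates the error. By this test of a strain effect, Pdgfb (adjusted p = 5.48e-07), Hbegf (0.00386) and Areg (0.00465) passed, with 3.46% of all genes. Hbegf and Areg did not pass the interaction (adjusted p = 0.539 and 0.877). Hbegf also lost its strain effect without any 1 of the PWK TM libraries or of NOD TM replicates 1 and 3. Areg lost it without PWK TM replicate 1 or 3, 129 or NOD TM replicate 2, WSB control replicate 2 or any 1 of the WSB TM libraries.

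Pdgfb also differed between strains before treatment. Its control mean ranged from 4.60 in WSB to 39.4 in PWK, 8.57 fold, with 45.1, 37.5 and 35.5 in the 3 PWK libraries. In the order of control means WSB, A, B6, CAST, NZO, NOD, 129 and PWK, WSB lay below all other control libraries, and 129 and PWK each lay above those of the strains before them. Neighbours from A to NOD overlapped. PWK, with the highest level, had endothelial markers that summed to 5.48 to 6.65, the lowest of the founder strains. 129, with the next highest control level, had sums of 21 to 21.6 in controls. Those lay above all other founder controls except WSB control replicate 2 (35.7). The part of endothelial transcripts in the Pdgfb levels of the strains was not tested. Levels under TM ran from 7.33 in WSB to 90.6 in PWK, with WSB, then CAST (20.9), below the rest and PWK above it, and the strains from NOD to NZO (27.9 to 38.2) overlapping with their neighbours. The strains with the highest control levels, PWK and 129, had changes of 1.21 and 0.40. A, B6, CAST and NZO, with control means of 7.14 to 9.65, had changes of 1.23 to 2.37, and WSB, with the lowest, 0.71. The control level is part of the change, so no test was made between them.

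**Figure D3:**
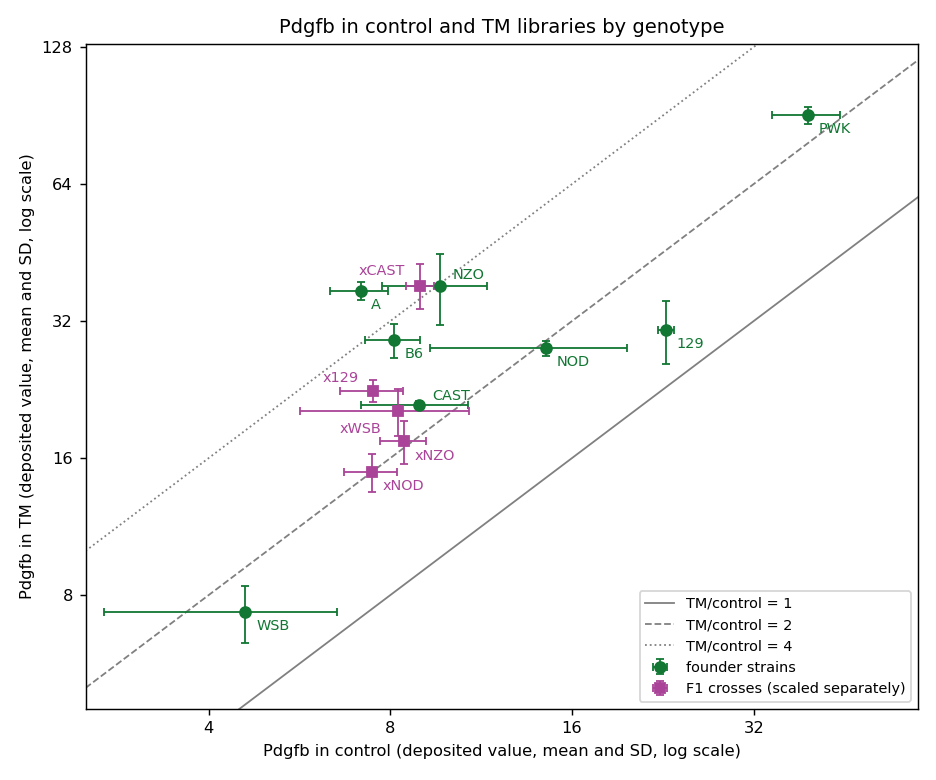
Pdgfb level in control (horizontal) against TM (vertical) libraries of each genotype, means with SD bars on log axes, founder strains and F1 crosses in different colours, with lines at TM/control of 1, 2 and 4. PWK is the highest and WSB the lowest on both axes, 129 lies nearest to the line at 1, and the 5 crosses share a narrow range of control means (7.46 to 8.96).

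In the F1 crosses Pdgfb started from nearly the same level everywhere. Control means lay between 7.46 in xNOD and 8.96 in xCAST, and the test of a difference in control gave an adjusted p of 0.815. Pdgfb rose in xCAST (43.2, 36.6 and 35 with TM against 8.62 and 9.30; log2 change 2.08 ± 0.17), x129 (1.58 ± 0.12), xNZO (1.03 ± 0.14) and xNOD (0.99 ± 0.15). The call in xNOD was lost without any 1 of its control libraries (adjusted p up to 0.0414) and that in xNZO without any library but control replicate 3 (up to 0.0387). xWSB had 10.8, 8.26 and 5.65 in controls and 19.0, 23.0 and 18.8 with TM, a change of 1.33 ± 0.26 (adjusted p = 0.0727). The cross by treatment interaction was not past the threshold for Pdgfb (adjusted p = 0.464; unadjusted p = 0.00192), and none of the 9 members passed it, against 0.0547% of all genes (5 members at an unadjusted p below 0.05, 0 by edgeR). Crosses and strains were not tested against each other, since their tables were scaled separately.

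Pdgfa (ENSMUSG00000025856, chr5:138976014-138997370, minus strand), which encodes the chain that pairs with PDGF-B in the AB dimer, was the member without a rise. Its level was 78.5 and 81.8 in CAST controls and 52.8 and 54.5 with TM, the lowest change of all genotypes (log2 -0.58 ± 0.12, adjusted p = 0.0156), which did not pass the threshold. Without CAST control replicate 1 it passed, at -0.61. B6 went from 60.2 and 59.1 to 52.1 and 46.0, and NOD from 68.8 and 71.8 to 55.7, 48.2 and 54.3, without overlap. Elsewhere the groups overlapped, apart from x129, with controls of 62.7, 62.7 and 64.2 and TM libraries of 49.8, 52.8 and 54.3. In NZO the TM libraries had 58.6, 59.6 and 119.9, the last of them TM replicate 3, and the change of -0.17 ± 0.33 became -0.51 without it. In A, control replicate 1 had 153.9 and the others 86.4 and 84.8. The changes in the crosses ran from -0.29 in xNZO to 0.06 in xWSB.

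Vegfa (ENSMUSG00000023951, chr17:46016993-46032369, minus strand) was abundant and moved by a modest factor. It had 327.4, 314.2 and 291.2 in PWK controls and 475.5, 465.5 and 598.1 with TM (log2 change 0.71 ± 0.10, adjusted p = 0.000203). In WSB it had 459.9 and 388.8 in controls and 644.1, 790.0 and 664.7 with TM (0.72 ± 0.15, adjusted p = 0.00901). PWK and WSB were the founder strains with a call, and xCAST the only cross (0.82 ± 0.15). The WSB call was lost without any library but TM replicate 3, with adjusted p-values up to 0.0822, and the xCAST call without any library but TM replicate 3, with values up to 0.107. NZO had a change of 0.78 ± 0.18 without a call, and of 0.62 with a call (adjusted p = 2.24e-07) without TM replicate 3. B6 was called without control replicate 2 (0.66), CAST without control replicate 1 (0.62) and NOD without control replicate 3 (0.59). CAST had a change of 0.60, and 129 the smallest of the strains, 0.23 ± 0.15. A was the strain in which TM (923.4, 722.8 and 1177.1) and control libraries (901.5, 636.6 and 674.2) overlapped. xNOD had 245.7 and 411.0 with TM, on either side of its controls (228.3 to 260.1), so its change was 0.36 ± 0.21 and -0.01 without TM replicate 2.

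Hbegf (ENSMUSG00000024486) had the highest level per kb of all members, and its changes were small but narrow. PWK had 743.3, 724.3 and 722.5 in controls and 1522.6, 1469.3 and 1567.8 with TM, 2.08 fold (log2 change 1.06 ± 0.08, adjusted p = 7.17e-07). WSB (0.73 ± 0.12) and xCAST (0.83 ± 0.14) were also called, and in the other genotypes the change lay between 0.36 in NOD and 0.66 in NZO. The call in WSB was lost without any library but TM replicate 3, and that in xCAST without any but TM replicate 3. B6 had 640.3 and 573.6 in controls and 841.2 and 844.0 with TM, and its change of 0.48 ± 0.07 (adjusted p = 0.000127) was below 1.5 fold.

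Areg (ENSMUSG00000029378) and Ereg (ENSMUSG00000029377) lie side by side on chromosome 5 (Ereg at 91074622 to 91093646 and Areg at 91139599 to 91148432 on the plus strand of GRCm38), with 45952 bases between them, and both rose in every set. Their levels were far apart. Per kb of exon, Ereg had 43.4 in founder controls and 106 with TM, and Areg had 3.49 and 8.26. Areg had 1.36 and 2.35 in WSB controls and 7.94, 8.39 and 10.1 with TM (log2 change 2.22 ± 0.30, adjusted p = 0.00138). It had 4.79, 3.53 and 4.12 in PWK controls and 18.0, 14.3 and 17.6 with TM (1.98 ± 0.15). B6 (1.08 ± 0.16), xCAST (1.63 ± 0.27) and xNOD (1.18 ± 0.19) were the other calls. The lowest Areg values rest on few reads, 11 in WSB control replicate 2 and 15 in CAST control replicate 3, so its folds there carry a large counting error. The call in WSB was lost without TM replicate 2 (adjusted p = 0.0104), that in xCAST without control replicate 2, TM replicate 1 or TM replicate 2 (up to 0.0258), and that in xNOD without TM replicate 1 or any 1 of its controls (up to 0.0441). CAST (1.65) and NOD (1.09) were called without their control replicate 1. After a correction for GC content and length the change in xNOD was 0.73 without a call.

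Ereg was induced in B6, CAST, NOD and PWK, and in x129, xCAST and xNZO. PWK had 137.9, 156.3 and 155.3 in controls and 572.9, 611.8 and 483.4 with TM (log2 change 1.89 ± 0.10, 3.70 fold). CAST, with the lowest controls (100.5 and 115.2), had 293.2 and 279.5 with TM (1.41 ± 0.12). In NZO the TM libraries had 677.8, 693.8 and 346.6, the last being TM replicate 3, against controls of 205.1 and 205.5. The change there was 1.41 ± 0.32 without a call (adjusted p = 0.0831) and 1.74 with a call (9.33e-14) when TM replicate 3 was left out. The smallest changes were 0.90 ± 0.13 in NOD and, among the crosses, 0.53 ± 0.10 in xNOD. The call in NOD was lost without any 1 of its TM libraries, that in xCAST without control replicate 2, TM replicate 1 or TM replicate 2, and that in xNZO without any library but control replicate 3. 129 was called without TM replicate 3 (1.04).

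Gdf15 (ENSMUSG00000038508, chr8:70629393-70632456, minus strand) had the largest mean change of the 9 in the founders, 1.36 ± 0.09 (2.57 fold), beside 1.34 ± 0.07 for Pdgfb. It rose in B6, CAST, PWK and WSB, and in x129, xCAST and xNOD. PWK had 24.6, 20.4 and 18.7 in controls and 80.4, 72.8 and 69.1 with TM (log2 change 1.81 ± 0.12, adjusted p = 1.17e-07). WSB had 26.4 and 23.8 in controls and 67.9, 93.3 and 74.9 with TM (1.63 ± 0.17). A had the largest change in size, 1.95 ± 0.28 from controls of 12.9, 9.48 and 7.14 to 30.7, 47 and 35.6, without a call (adjusted p = 0.0171). In 129 the TM libraries had 51.8, 41.5 and 23.1. The change there was 1.26 ± 0.33 without a call, and 1.6 with a call (adjusted p = 0.00238) when TM replicate 3, the lowest, was left out. Among crosses, x129 stood apart at baseline, with 10.5, 8.84 and 10.3 in controls against 21.6 to 50.9 in the other crosses. It still had 30.5, 30.4 and 22.9 with TM (1.48 ± 0.13). The call in xNOD was lost without any 1 of its controls (adjusted p up to 0.0278). NZO was called without TM replicate 3 (0.91), and NOD without control replicate 1 (0.64) or 3 (1.22). After a correction for GC content and length A (2.2), NOD (1.25), NZO (1.49), xNZO (0.93) and xWSB (1.09) were called too.

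Fgf7 (ENSMUSG00000027208, chr2:126034658-126091185, plus strand) and Bdnf (ENSMUSG00000048482, chr2:109674700-109727007, plus strand) moved by modest amounts. Fgf7 rose in B6 (56.0 and 52.4 to 92.9 and 93.5; log2 change 0.78 ± 0.08) and PWK (45.7, 48.8 and 47.5 to 110.1, 110.9 and 99.5; 1.17 ± 0.09), and in x129 (1.00 ± 0.10), xCAST (1.13 ± 0.20) and xNOD (0.63 ± 0.09). The call in xCAST was lost without any library but TM replicate 3 and that in xNOD without any 1 of its controls. After a correction for GC content and length the change was 0.27 in B6, 0.52 in x129, 0.63 in xCAST (adjusted p = 0.0102) and -0.02 in xNOD, and PWK (0.73) was the one genotype that kept its call. NZO was called as deposited without TM replicate 3 (1.05), 129 without TM replicate 3 (0.77), NOD without control replicate 1 (0.93) and CAST without control replicate 1, control replicate 3 or TM replicate 3 (0.87, 0.74 and 0.96). Changes in the founder strains ran from 0.69 in NOD to 1.17 in PWK, and from 0.11 in 129 to 0.73 in PWK after the correction, although control means differed by 4.87 fold between CAST (18.8) and 129 (91.6). xWSB was unlike the other crosses, with control levels of 141.2, 151.1 and 215.1 against 30.3 to 44.5 in the others. Its TM libraries had 248.7, 171.7 and 144.9 and overlapped with the controls, and the change was 0.14 ± 0.25 (adjusted p = 0.865). The unadjusted p of the cross by treatment interaction for Fgf7 was 0.00728 and the adjusted p 0.782.

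Bdnf rose in B6 (94.6 and 91.0 to 144.1 and 142.1; log2 change 0.62 ± 0.08), PWK (0.69 ± 0.10) and WSB (95.7 and 105.9 to 215.7, 200.7 and 157.5; 0.91 ± 0.16), and in x129 (0.74 ± 0.08), xNOD (0.78 ± 0.09) and xNZO (0.77 ± 0.10). The WSB call was lost without any library but TM replicate 3, that in xNOD without any 1 of its controls and that in xNZO without any library but control replicate 3. NZO was called without TM replicate 3 (0.72), 129 without TM replicate 3 (0.99), CAST (0.75) and NOD (0.62) without control replicate 1, and xCAST without TM replicate 3 (0.67). After the correction for GC content and length the change was 0.31 in B6, 0.40 in PWK, 0.39 in x129, 0.58 in xNOD and 0.52 in xNZO, each below 1.5 fold, and WSB (0.64) was the one genotype that kept its call. As deposited, changes ran from 0.42 in xWSB to 0.95 in 129. The adjusted p of its interaction was 1 in the founders and 0.79 in the crosses, which does not show that the strains act alike.

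The base composition of transcripts moved with treatment in these libraries. The slope of log2 level on transcript GC content was lower in TM than in control libraries in 8 of 8 strains (-0.38 to -0.23 log2 per 10 points of GC, mean -0.30) and in 5 of 5 crosses (-0.31 to -0.06, mean -0.24). The members span the range of GC content, from 38.0% for Fgf7, 39.2% for Ereg and 40.9% for Bdnf to 60% for Pdgfb and 61.3% for Gdf15, with Areg (48.4%), Vegfa (50.9%), Hbegf (51.5%) and Pdgfa (52.1%) between. When each library was corrected for a trend in GC content and length, a choice made after seeing the data, the founder mean change of Fgf7 went from 0.87 to 0.38, Ereg from 1.27 to 0.89 and Bdnf from 0.72 to 0.42. Those of Pdgfb and Gdf15 went up, from 1.34 to 1.6 and from 1.36 to 1.62. Areg, Hbegf, Vegfa and Pdgfa had 1.15, 0.62, 0.57 and -0.25. In the crosses Fgf7 went from 0.70 to 0.25, Ereg from 0.93 to 0.63 and Bdnf from 0.68 to 0.44, and Pdgfb from 1.4 to 1.63. Fgf7 and Bdnf thus fell below 1.5 fold in both sets, at adjusted p-values of 7.16e-06 or less, and Vegfa in the crosses moved above it (1.52 fold). Within genotypes, Pdgfb was called in NOD (1.21), NZO (2.25) and xWSB (1.36) too after the correction, and Vegfa in CAST (0.62). The correction takes away any part of the response that runs with GC content, whatever its source, and the part of base composition in the results was not tested. Over deviations of wells from their group means, Ereg and Fgf7 ran together (r = 0.89 in founders and in crosses), as did Fgf7 and Bdnf (0.57 and 0.69), and Fgf7 ran against Pdgfb (-0.57 and -0.44) and Gdf15 (-0.49 and -0.41). In the same measure, the correlation of Pdgfa with Ereg was -0.80 over 40 founder libraries and -0.83 over 28 F1 libraries, where the points share their library and its base composition.

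**Figure D4:**
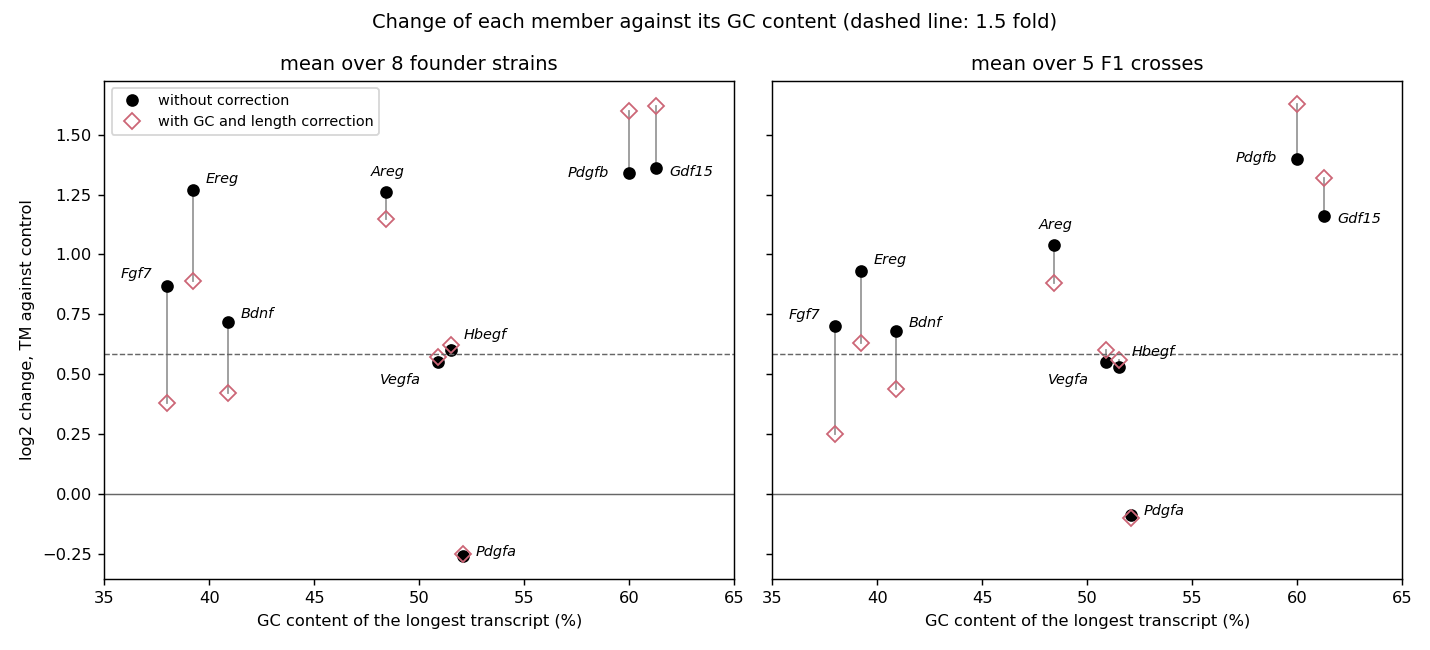
Mean log2 change of each member over the founder strains and over the F1 crosses against the GC content of its longest transcript (percent), as deposited and after the correction for GC content and length. The 3 members near 40% GC (Fgf7, Ereg and Bdnf) move down with the correction and the 2 near 60% (Pdgfb and Gdf15) move up, while Vegfa, Hbegf and Pdgfa, near 50%, hardly move and Areg moves down a little.

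Without treatment, most members had levels that differed between genotypes, as did many genes. In founder controls 6 of 9 differed (Pdgfb, Vegfa, Areg, Gdf15, Fgf7 and Bdnf), against 35.8% of all genes, and in F1 controls 7 of 9 (Pdgfa, Vegfa, Hbegf, Areg, Gdf15, Fgf7 and Bdnf), against 21.4%. CAST had the lowest founder mean of Vegfa (156), Areg (1.78), Ereg (108) and Fgf7 (18.8). For Vegfa, Ereg and Fgf7 the CAST libraries lay below those of the next strain, and for Areg they overlapped with WSB (1.86). A had the highest mean of Vegfa (737), Hbegf (883) and Pdgfa (108), with the NZO libraries next below for Vegfa (492) and without overlap there. For Hbegf and Pdgfa the rank rests on A control replicate 1. It had 1094.9 for Hbegf, against 782.1 and 770.7 in the other A controls, and 153.9 for Pdgfa, against 86.4 and 84.8. Without A control replicate 1, all 9 members differed between founder controls. The share of all genes that differed in that fit is not given, so this count has no background. Among F1 controls, xWSB had the highest Vegfa (592), Ereg (221), Gdf15 (37.8), Fgf7 (169) and Bdnf (106). For Vegfa, Fgf7 and Bdnf it did not overlap with the next cross, while for Gdf15 it overlapped with xNOD (35.2) and for Ereg with xCAST (161). Per kb of exon in founder controls, Hbegf had 145, Vegfa 92.2, Ereg 43.4, Pdgfa 26.2, Fgf7 17.3, Bdnf 13.7, Gdf15 10.7, Areg 3.49 and Pdgfb 3.46. The F1 order began and ended alike, with 114 for Hbegf, 2.43 for Areg and 1.95 for Pdgfb.

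Few of the related ligands and receptors passed the threshold of the mean change. Of 6 other PDGF and VEGF ligands, 1 was raised in each set, Vegfc, a growth factor of lymphatic vessels (0.81 ± 0.06 in founders and 0.87 ± 0.05 in crosses). None of 8 PDGF and VEGF receptors passed in either set by limma or edgeR, with 6 lower and 0 higher in each set at an unadjusted p below 0.05. Without the share of all genes at that unadjusted limit, such counts in this and the other lists cannot be read as a result about the list. The one with the highest level per kb, Pdgfrb, the receptor of PDGF-B, changed by -0.41 ± 0.07 and -0.48 ± 0.06 with adjusted p-values of 5.8e-06 and 3.88e-07, and Nrp1, a coreceptor of VEGF, by -0.23 ± 0.08 and -0.29 ± 0.07. Of 4 other EGF family ligands in the tables, Egf, at a control mean of 0.818, and Nrg1 (0.74 ± 0.07) were raised in founders and Tgfa was lowered in crosses (-0.68 ± 0.15). By edgeR, but not by limma, Tgfa was lowered in founders too. Of the EGF family receptors and their regulators, 1 of 6 in founders and 1 of 5 in crosses was raised. That was Errfi1, which inhibits the EGF receptor (0.90 ± 0.06 and 0.66 ± 0.07). The rest of the FGF ligands held 1 raised gene of 7, Fgf21, a stress-responsive hormone (3.52 ± 0.14 in founders from a control mean of 0.194, and 2.69 ± 0.18 in crosses), and Fgf2 was lowered in founders (-0.82 ± 0.18). None of 6 FGF receptors and binding proteins passed by limma or edgeR (3 lower in each set at an unadjusted p below 0.05, and 1 higher in founders), with Fgfr1 at -0.17 ± 0.04 and Fgfrl1 at -0.44 ± 0.05 in founders.

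Among 7 other neurotrophins and receptors in founders none passed by limma or edgeR (2 lower at an unadjusted p below 0.05), and in crosses 1 of 6 was lowered, the sorting receptor Sort1 (-1 ± 0.22). Of 13 genes of the GDF15 receptor and TGF-beta ligand list in founders and 12 in crosses, 4 were lowered in each set and 0 raised by limma and by edgeR (at an unadjusted p below 0.05, 8 and 7 lower, 1 and 0 higher). Of all genes, 5.41% and 5.54% were lowered. The 4 were Ret, the signalling partner of the GDF15 receptor (-0.78 ± 0.10 and -0.86 ± 0.10), Gdf6, Gdf10 and Gdf11 in both sets. Of 11 genes that process or shed growth factors, Furin, the protease that cleaves PDGF and TGF-beta precursors, was lowered in both sets (-0.71 ± 0.06 and -0.70 ± 0.06) and Timp3, an inhibitor of metalloproteases, in crosses (-0.63 ± 0.07), with 0 raised by either tool or at an unadjusted p below 0.05. Of 12 ERK feedback genes, which rise with growth factor signalling, Spry4 (0.72 ± 0.07) and Phlda1 (0.67 ± 0.05) were raised in founders. Dusp5, Spry2 and Phlda1 were raised in crosses by both tools. Spred2 was lowered there by limma, while edgeR lowered 0 genes of the list. Tgfa, Sort1, Timp3, Dusp5, Spry2 and Spred2, named for their calls in the crosses, were chosen after their values were seen. The median change of the ERK feedback list was 0.28 in founders and 0.19 in crosses, against -0.04 over all genes.

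The genes whose levels ran most like each member over the 40 founder libraries are given by Pearson's r, with no test, since all points share libraries and treatment. Ereg ran with Ptgs2, the inducible cyclooxygenase (r = 0.935), and Osgin2 (0.931), and Hbegf with Relb (0.873), an NF-kB subunit, and Junb (0.867), an AP-1 subunit. These held over the 28 F1 libraries too, at 0.896, 0.885, 0.857 and 0.878. Pdgfb ran with Stx11 (0.883, and 0.908 in the F1 set) and Tlr2 (0.871 and 0.718), and Bdnf with Tlk2 (0.908 and 0.801) and Dhx40 (0.904 and 0.892). Other likenesses were not shared by the crosses. Fgf7 ran with Gorab at 0.913 in the founders and 0.014 in the crosses, Vegfa with Btg2 at 0.831 and 0.045, and Areg with Rnd1 at 0.858 and 0.328. Fgf7 and Areg both ran with Arid5a (0.882 and 0.858 in founders, 0.362 and 0.817 in crosses), and Vegfa with Rnf149 (0.835 and 0.808). Gdf15 ran with Srsf6 (0.874 and 0.575) and Tspyl4 (0.855 and 0.411), and Pdgfa with Arf5 (0.881 and 0.278) and Cdkn2a (0.879 and 0.837).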

How the data were processed

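The 68 MEF libraries (40 of founder strains, 28 of F1 crosses) were grouped by their labels. The submitters' processing notes name FastQC, Trimmomatic, TopHat 1.4.1, edgeR, GRCm38 and mm10. The authors aligned single-end reads to a genome made for each strain, normalized libraries by TMM in edgeR, left out libraries that did not cluster with their condition and normalized again. The counting program and its use of strand are not given in the sources used here, so reads of overlapping antisense genes cannot be told apart.

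The deposited values are called FPKM, for which the tests were designed. In each library they are whole multiples (tolerance 0.02) of 1 step shared by all genes, so they were treated as deposited signal, reads per gene scaled by library size and not by length. Whole reads were recovered for 66 libraries, in which every value came out whole. The steps of PWK TM replicate 2 and WSB TM replicate 1 are too near 0.1 to claim, and edgeR was run without them. The F1 tables hold 3 lines of unassigned reads (15.47% to 24.15% of a library), which were left out.

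Values were tested with limma 3.58.1 (R 4.3.3, eBayes with trend) on log2(value + 0.1), which understates changes of low genes, over genes at 0.5 or more in at least 2 libraries. Calls needed a Benjamini-Hochberg adjusted p below 0.01 and 1.5 fold. Alternatives were edgeR 4.0.16 on recovered reads, a pseudocount of 1, no filter, a mean of at least 2, median-of-ratios scaling, no trend, FDR 5%, 1 fit per set, array weights, the replicate number as a block, and each library left out in turn. A GC and length correction, the block with it, and leaving out 3 libraries with large GC slopes or 3 with endothelial or neural transcripts were chosen after seeing the data. Scripts were tested on simulated data. No batch is given in the labels.

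The members and lists were chosen with earlier results of these data known. Named genes are the 9 members, the 2 genes most like each over the founder libraries, Hspa5 and Ddit3, and per pathway list up to 4 genes past the founder mean threshold or, where none passed, up to 2 with the highest level per length. Some genes under this rule are not reported here. Names, lengths and locations came from GENCODE vM21 (Python 3.11.15, pandas 2.3.3).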

Additional observations from a re-analysis of the deposited data

Results flagged for a closer look

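The response of Pdgfb to TM differed between the founder strains by a test of the difference itself, the strain by treatment interaction (adjusted p = 0.0015), with log2 changes from 0.40 in 129 to 2.37 in A. The call was lost with the replicate number as a block (adjusted p = 1) and with the block and the GC and length correction (0.0915). In each of these fits 0% of all genes passed. The strain effect on TM relative to the median control, a test that takes that median as known, also set strains apart for Hbegf (adjusted p = 0.00386, changes from 0.36 in NOD to 1.06 in PWK) and for Areg (adjusted p = 0.00465, from 0.75 in NOD to 2.22 in WSB). The interaction of Hbegf and Areg, which counts the spread of the controls, did not pass (adjusted p = 0.539 and 0.877). Groups of 2 or 3 libraries were too small for a test of single libraries that lie far from their group.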

How the results depend on the processing

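Induced calls of members numbered 24 in the founder strains and 20 in the crosses. They moved to 9 and 8 without the trend in the spread, where 0.801% and 1.02% of all genes tested were induced over the genotypes. They moved to 39 in the founders at FDR 5% (4.3% of all genes). In the crosses they moved to 12 with the replicate block and the GC and length correction (1.7%). The 1 founder interaction (Pdgfb, with 0.174% of all genes) became 0 under the replicate block (adjusted p = 1) and 0 under the block with the correction (0.0915). In each of these fits with the block 0% of all genes passed. With array weights the number became 5 (Pdgfb, Hbegf, Areg, Ereg and Gdf15), against 1.7% of all genes. The F1 interactions went from 0 to 1 with array weights (Gdf15, with 0.281% of all genes) and to 1 with the correction (Fgf7, with 0.148%). Whether the replicate numbers pair the samples is not known. Of 29 same-numbered pairs of control and TM libraries, 7 had a correlation of their deviations over 0.1 (-0.532 to 0.312, median 0.02). In groups of 2 or 3 libraries the deviations are tied to each other, so these correlations cannot decide it. The block could not be fitted within B6 or CAST. As each library was left out, induced calls ran from 20 (without WSB TM replicate 2) to 30 (without NZO TM replicate 3) in the founders and from 15 (without xCAST control replicate 2) to 21 in the crosses, and lowered calls from 0 to 1 (Pdgfa, without CAST control replicate 1) and 0 to 0. Members changed on the mean ran from 6 to 7 in both sets, interactions from 1 to 1 and 0 to 0, strain effects from 1 (without PWK TM replicate 1 or 3) to 4 (without 129 TM replicate 3, where Gdf15 was added), and differences in control from 5 to 9 and 5 to 8. The shares of all genes in the fits without a library are not given, so these ranges have no background.

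Changes of single members that turned direction were all small. Pdgfa turned in NZO with the block (0.01), the block and correction (0.06) and without TM replicate 1 (0.01), in 129 without TM replicate 3 (0.03), in WSB with the correction (-0.01) and without control replicate 3 (-0.01), and in xCAST without control replicate 3 (-0.03) or TM replicate 3 (-0.13). In xNOD it turned with the block (-0.02), the correction (-0.07), the block and correction (-0.11) and without control replicate 3 (-0.02), and in xWSB without control replicate 3 (-0.08) or TM replicate 3 (-0.06). Fgf7 turned with the correction and with the block and correction in xNOD (-0.02 and -0.01) and xWSB (-0.04 and -0.04), and in xWSB without TM replicate 1 (-0.08), and Vegfa in xNOD without TM replicate 2 (-0.01). As libraries of the genotype were left out, the change of Pdgfa ranged from -0.33 to 0.03 in 129, -0.51 to 0.01 in NZO, -0.01 to 0.28 in WSB, -0.13 to 0.19 in xCAST, -0.02 to 0.04 in xNOD and -0.08 to 0.21 in xWSB, that of Fgf7 in xWSB from -0.08 to 0.33 and that of Vegfa in xNOD from -0.01 to 0.73. Of the single results left without 1 library, 1725 kept their side of the threshold, 68 lost a call, 33 gained one and 10 turned. The cause of these changes was not tested, beyond the smaller number of libraries in a fit that leaves some out. Areg in WSB and CAST controls rests on the fewest reads, and its differences are limited by depth.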
